A study of Mus musculus with 2 samples.

Results

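Sod1, Tardbp, C9orf72, Grn, Vcp, Optn, Tbk1, Sqstm1 and Matr3 are the mouse counterparts of human genes in which inherited variants cause amyotrophic lateral sclerosis (ALS), frontotemporal dementia (FTD) or both. The 9 genes were picked by symbol from the 55536 gene entries quantified in left cerebral cortex, and all 9 were found. The tissue came from 2 adult male mice, 8 to 10 months old, of the F1 hybrid strain B6CASTF1/J, bred from B6 and Cast parents and, per the labels, from 1 commercial source. No gene edit, disease allele or treatment is given for either animal, so the values describe the genes in untreated tissue of 1 group and no condition was compared. The labels number the animals 2 and 4 and call them biological replicates 1 and 2, but give both the same donor label. That they are separate animals, on which each SD rests, is taken from those numbers, and the spread between them may be partly technical.

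The proteins fall into a few linked systems. Tardbp encodes TDP-43 and Matr3 encodes matrin 3, both nuclear RNA-binding proteins that act in splicing, and TDP-43 deposits outside the nucleus mark most human ALS and many FTD cases. Sqstm1 (p62) and Optn (optineurin) encode receptors that tie ubiquitin-tagged cargo to the autophagosome, and Tbk1 encodes a kinase that phosphorylates both. C9orf72 encodes a partner of Smcr8 and Wdr41 in a complex that acts in autophagy and lysosome traffic, Grn encodes the lysosomal and secreted protein progranulin, Vcp encodes a hexameric ATPase that pulls ubiquitin-tagged proteins apart from their partners, and Sod1 encodes the cytosolic copper-zinc superoxide dismutase.

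Each library was made from 300 ng of total RNA depleted of ribosomal RNA and spiked with ERCC transcripts, with 26925514 expected counts for replicate 1 and 30143684 for replicate 2. An expected count is an estimate of the reads that belong to a gene or transcript. Levels are the deposited TPM (an abundance corrected for transcript length and scaled to a fixed total), and ± marks the SD over both animals (n = 2). Markers of brain cells were present in both libraries. In replicates 1 and 2, 4 neuron markers summed to 2025 and 2147 TPM and 4 astrocyte markers to 1263 and 1313 TPM. The 8 microglia markers summed to 185.5 and 190.1 TPM. Such cells occur in other brain regions too, so these values could not test the cortex label. The libraries stood apart in tissue beside the cortex. The 4 choroid plexus markers summed to 728.4 TPM in replicate 1 and 4.70 TPM in replicate 2, most of it the transthyretin gene Ttr, and 4 striated muscle markers summed to 8.73 and 26.6 TPM. Markers of striatal projection neurons were present in both, at 358.5 and 383.4 TPM over 4 genes. None of these markers was at 0 in both libraries. The part of such admixed cells in the levels given here was not tested, and in bulk tissue fewer cells of a type cannot be told apart from less RNA per cell.

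All 9 genes were detected in both animals, over a span of 32.9 ± 2.28 times between the highest, Matr3, and the lowest, Optn. In replicates 1 and 2, Matr3 reached 269 and 300.1 TPM, Sqstm1 at 233 and 240.1 TPM, and Sod1 at 191 and 194 TPM. Tardbp (92.0 and 95.4 TPM) and Vcp (78.7 and 83.0 TPM) followed. Grn (24.6 and 23.7 TPM) and Tbk1 (21.02 and 20.40 TPM) came next, and C9orf72 (8.99 and 11.6 TPM) and Optn (7.79 and 9.59 TPM) were last. Of the 8 neighbouring pairs in this order, 7 kept apart, in that both animals' values of the higher gene lay above both values of the lower gene. The exception was C9orf72 and Optn, whose ranges overlapped. The median of the 9 means was 80.9 TPM, against 16.2 TPM over the 12994 protein-coding genes with at least 1 TPM in both animals. Matr3 ranked above 98.6% of those genes, Vcp above 90.1%, Grn above 62.7% and Optn above 31.2%, so C9orf72 and Optn lay below that median and the other 7 above it. Without the minimum of 1 TPM the median was 4.02 TPM, and all 9 lay above it.

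**Figure D1:**
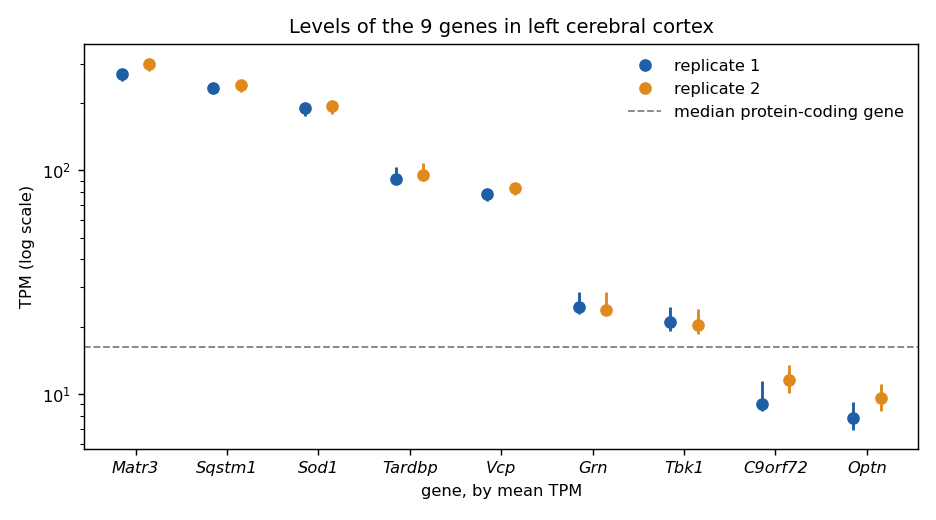
TPM of the 9 genes on a log scale, by gene in order of mean TPM, with a point for each animal (replicate 1 left, replicate 2 right) and the deposited credibility interval of the level as a line. The dashed line is the median protein-coding gene at 16.2 TPM; 7 genes lie above it, and C9orf72 and Optn lie below it.

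The animals were close to each other in all 9 genes. On scaled counts, the log2 ratio of replicate 1 over replicate 2 lay between -0.20 for Optn and 0.11 for Tbk1, with 4 genes higher in replicate 1 and 5 higher in replicate 2. None of the 9 differed 2-fold, where 0.861% of 14163 genes averaging 50 or more normalised counts did. None differed 1.2-fold, where 18.3% of those genes did. By TPM in place of counts, 2 of the 9 did so, C9orf72 and Optn. Of the 14163 genes, 2799 did so by TPM with 1 added before the log and 3511 with 0.1 added. The median absolute log2 ratio was 0.029 over the 9 genes and 0.11 over all genes tested, and the coefficient of variation between the animals was 0.109 over 18214 genes. Each animal gave 1 library, so no single gene could be tested. The widest ratio, that of Optn, rested on 325 and 420 counts, and its exact 95% binomial interval ran from 0.750 to 1.01, so at this depth a difference in Optn was not detectable beyond counting error. Those intervals cover counting error only. The choroid plexus markers differed between the same libraries by the values above, and their part in these ratios was not tested.

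**Figure D2:**
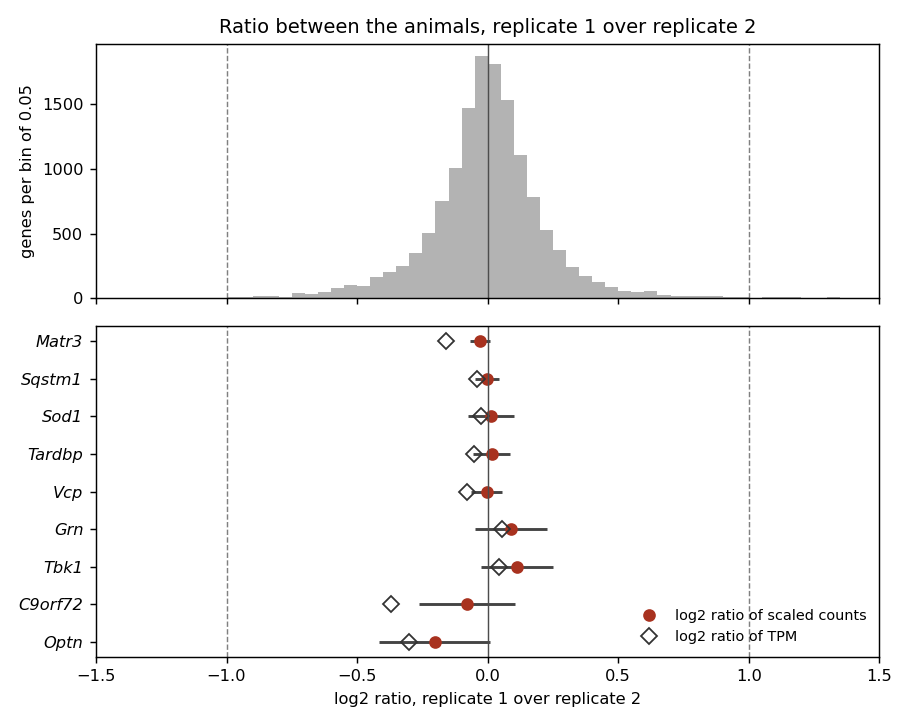
Ratio between the animals on a log2 scale, replicate 1 over replicate 2. The upper panel counts 14163 genes in bins of 0.05, leaving 15 genes below and 35 above the drawn range; the lower panel shows each of the 9 genes by scaled counts (filled, with the 95% counting interval) and by TPM (open), with dashed lines at 2-fold. All filled points lie between -0.20 and 0.11, and the open points of C9orf72, Optn and Matr3 lie furthest from them.

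TPM put C9orf72 and Matr3 further apart between the animals than the counts did, and in each gene a single short form carried the gap. The log2 ratio of TPM was -0.37 for C9orf72, against -0.08 on scaled counts, and -0.16 for Matr3, against -0.03. That of Optn was -0.30, against -0.20. C9orf72-204 was assigned 0.21 TPM and 2.19 counts in replicate 1 and 2.50 TPM and 28.9 counts in replicate 2. Without it, C9orf72 stood at 8.78 and 9.12 TPM, a log2 ratio of -0.05. Matr3-208, a form of 412 bases, was assigned 14.1 and 36.6 TPM, and without it Matr3 stood at 254.8 and 263.5 TPM, again a log2 ratio of -0.05. C9orf72 still overlapped Optn in the order of levels without it.

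The genes differed in how many annotated forms shared their output. GENCODE lists 91 transcripts for the 9 genes, of which 24 had no count in either animal. Within each gene, the form with the largest share of TPM was the same in both animals for 9 of 9 genes, where this held for 85.4% of 12280 genes with at least 2 transcripts and 1 TPM. It was also the same by the second deposited quantification for 9 of 9, against 65.8% of those genes. By expected count in place of TPM, the leading form was unchanged for 8 of 9, against 77.2%, and the exception was Tardbp. The leading form took 99.0% ± 0.0636 of Sod1, 94.9% ± 1.62 of Vcp, 86.4% ± 1.36 of Sqstm1, 82.7% ± 0.827 of Grn, 82.2% ± 2.86 of Optn, 78.6% ± 12.9 of C9orf72, 72.8% ± 1.87 of Tbk1, 40.8% ± 2.64 of Matr3 and 21.4% ± 2.33 of Tardbp. The median leading share over the 12280 genes was 63.5%, and 0.879% of them had a lower one than Tardbp.

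Forms that GENCODE classes as protein-coding held at least 90% of TPM in both animals for 3 of the 9 genes, Sod1, Vcp and Sqstm1, against 45.7% of 12994 protein-coding genes. The other classes are forms that keep an intron, forms whose early stop codon marks them for nonsense-mediated decay, and processed transcripts with no annotated reading frame. A short form weighs more in TPM than in counts. By share of expected counts, 7 of the 9 genes reached 90%, and Tardbp and Optn did not. The share of all protein-coding genes that reached it by counts was not computed, and the 45.7% is by TPM. In Tbk1, forms with a retained intron took 25.9% and 27.4% of TPM but 5.88% and 7.55% of counts. In C9orf72, processed transcripts took 7.78% of TPM in replicate 1 and 22.5% in replicate 2.

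**Figure D3:**
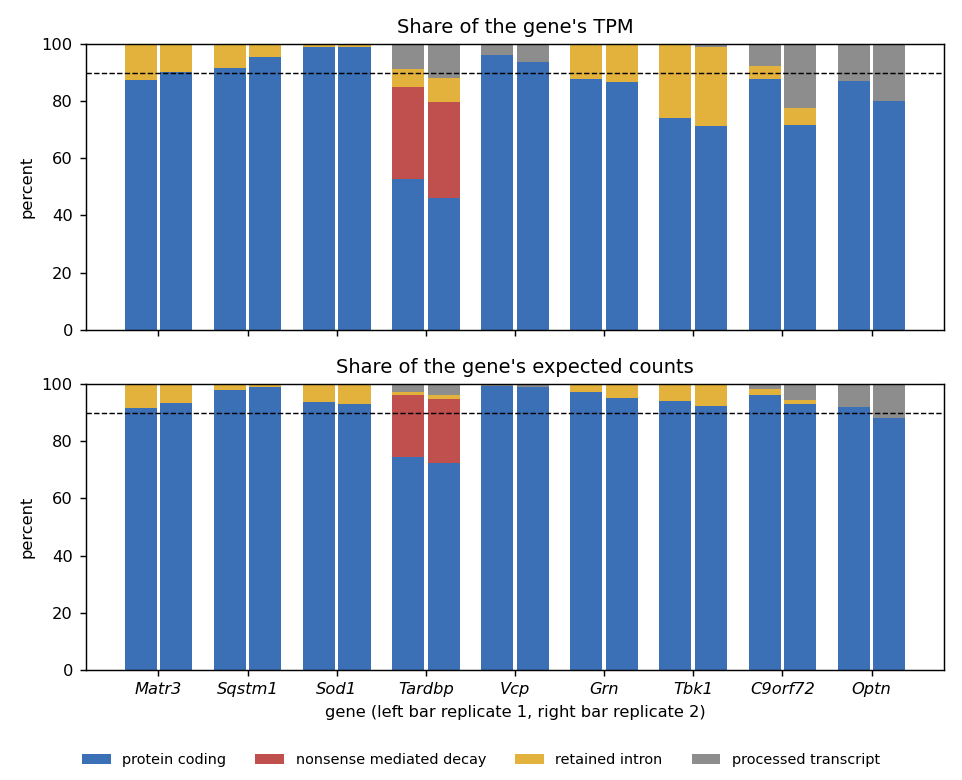
Share of each gene's output in 4 GENCODE transcript classes, in percent of TPM (upper panel) and of expected counts (lower panel), with replicate 1 as the left bar and replicate 2 as the right bar of each gene. The dashed line marks 90%; Tardbp has the widest nonsense-mediated decay class of the 9, 32.4% and 33.7% of its TPM.

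Tardbp (chromosome 4, 148612382 to 148627019, minus strand, GRCm38/mm10) had the most forms of the 9, with 30 annotated transcripts. TDP-43 is known to bind its own RNA near the end of the gene and to lower its own level through splicing there. The last exon of the full-length form Tardbp-202 spans 148612382 to 148618791 and holds 6410 bases. Of these, 528 (148618264 to 148618791) are the coding end of its 414-residue protein, and 5882 are the stop codon and the 3′ UTR. Those coding bases encode the glycine-rich C-terminal region, where most human ALS variants of the gene lie. In 20 of the 30 annotated transcripts an intron takes out part or all of that stretch. These are the 30 bases across the junction in 5 such forms (minus strand, 5′ to 3′), with the 15 bases before the junction in capitals. Tardbp-214 and Tardbp-205 are shown by the rule for named forms, and the other 3 were chosen after their values were seen.
Tardbp-214, 148618647 joined to 148617825: GCTTTGGGAATCAGGgaaaatctccatttg
Tardbp-205, 148618665 joined to 148617635: TTGGTGGTAATCCAGgaatacttctgtcta
Tardbp-204, 148618674 joined to 148617705: GTGGAAGATTTGGTGttcatctcatttcaa
Tardbp-230, 148618674 joined to 148617825: GTGGAAGATTTGGTGgaaaatctccatttg
Tardbp-201, 148618665 joined to 148617705: TTGGTGGTAATCCAGttcatctcatttcaa
The 5 junctions use 3 donors and 3 acceptors. The introns remove 821 to 1029 bases, of which 383 to 410 are coding in Tardbp-202, and the annotated proteins of Tardbp-201, Tardbp-204 and Tardbp-205 have 298, 295 and 302 residues.

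The forms spliced within this stretch took 51.0% of Tardbp TPM in replicate 1 and 44.8% in replicate 2, and 29.2% and 28.8% of its counts. Forms that keep the stretch whole, Tardbp-202 and Tardbp-228, took 28.8% in each animal by TPM and 64.6% and 63.1% by counts. The second quantification gave the spliced forms 48.5% and 40.9% of TPM and 23.7% and 20.5% of counts. By counts the spliced forms were thus the smaller part in both quantifications, and by TPM they exceeded the forms that keep the stretch. Tardbp-214 led by TPM, at 21.2 and 18.9 TPM, but had 266.8 and 258.1 counts. Tardbp-202, of 7477 bases, had 13.2 and 13.0 TPM and 1719 and 1833 counts, so it led by counts in both animals. Tardbp-214 has 814 bases, with its start marked incomplete, and all 814 also lie in Tardbp-202, so its own sequence is the junction alone. The split between these forms therefore rests on reads across junctions and on how each quantification shares out the rest.

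Tardbp had the largest nonsense-mediated decay class of the 9 genes, at 33.0% ± 0.963 of TPM and 22.1% ± 0.594 of counts, and 3.01% of the 12994 protein-coding genes had a larger share of TPM in it. These ranks depend on which genes have annotated forms of the class. Tardbp has 10, Matr3 and Tbk1 have 1 each, and the others of the 9 have none. Only 22.3% of the 12994 genes had any TPM in the class. The main form of Tardbp in this class, Tardbp-228, had 13.2 and 14.5 TPM and 305 and 363 counts, and skips the exon at 148621949 to 148622112. That exon has 164 bases, which leaves a remainder of 2 after division by 3, and the annotated reading frame of Tardbp-228 ends after 84 residues. The junction left by the skip is shown beside the same place in Tardbp-202, with the bases before the exon border in capitals.
Tardbp-228, 148625125 joined to 148620732: TCAACTATCCCAAAGgtcaagaaagatctt
Tardbp-202 at the same border: TCAACTATCCCAAAGataacaaaaggaaaa
Tardbp-208, a second form of that class that splices within the 3′ UTR, had 4.54 and 5.75 TPM. Tardbp-220, a processed transcript within the 3′ UTR, had 8.14 and 11.4 TPM. Tardbp-205 and Tardbp-211 passed 10% in 1 animal by the second quantification alone, and had 0.77 and 0 TPM and 0.34 and 0.22 TPM by the other. The gene Masp2 on the opposite strand overlaps the last 3118 bases of Tardbp and held 12 and 15 counts.

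**Figure D4:**
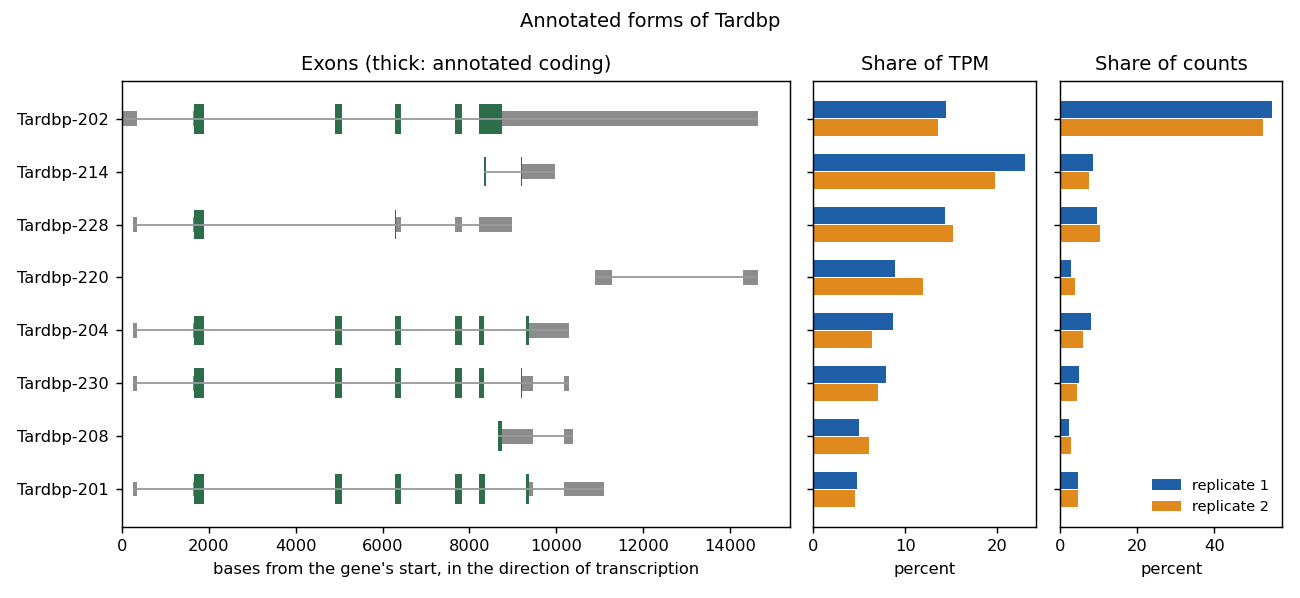
Annotated exons of 8 Tardbp forms by distance in bases from the gene's start (thick where annotated as coding), beside each form's share of the gene's TPM and of its expected counts in percent, replicate 1 above replicate 2. Tardbp-214 has the longest bars by TPM, at 23.1% and 19.8%, and Tardbp-202 by counts.

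Matr3 (chromosome 18, 35562138 to 35593835, plus strand), the highest of the 9 genes, was 3.04 ± 0.157 times as high as Tardbp. Its largest form by TPM and by counts was Matr3-207, with 115 and 117 TPM and 5126 and 5680 counts. Matr3-207 lacks the exon at 35571843 to 35572935 (1093 bases) and the next at 35577558 to 35577619 (62 bases), and its annotated protein has 508 residues, against 846 in the full form Matr3-217. Of its 2638 bases, 1037 are not in Matr3-217. Matr3-207 also ends further on, at 35591419 against 35590464, within the span of Matr3-201, which encodes 846 residues. Matr3-214, which has 508 residues too but ends at 35590581, had 24.2 and 24.7 counts. Matr3-210, likewise of 508 residues, had 0 in both animals. How much of the Matr3-207 level rests on its longer end and not on the missing exons was not tested. Matr3-217 stood at 49.0 and 59.0 TPM, Matr3-204, whose end is marked incomplete, at 41.4 and 47.0 TPM, and Matr3-208 at the values given above. The second quantification gave Matr3-207 39.3% and 38.4% of the gene and Matr3-208 6.99% and 0%. It gave Matr3-204 29.5% and 37.3%, against 15.4% and 15.7% in the first, and Matr3-217 12.3% and 9.11%, against 18.2% and 19.7%. Matr3-207 thus led by both, but the order of Matr3-217 and Matr3-204 was opposite, and Matr3-204 came close to the leading form in replicate 2 of the second. Gm28285, a gene model that covers most of Matr3 on the same strand and shares 1313 bases with Matr3-201 without a mismatch, was assigned 64.0 and 21.7 counts.

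Among genes that work with TDP-43 and matrin 3 in RNA splicing and transport, 14 of 14 listed had at least 1 TPM, with a median of 53.1 and 53.5 TPM. The highest were Hnrnpk (297 and 355 TPM) and Hnrnpl (188 and 206 TPM), which encode splicing proteins, and Ddx5 (289 and 284 TPM), which encodes an RNA helicase. Rbm14, which encodes a paraspeckle protein, was lowest by mean, at 24.2 and 15.6 TPM, but Nup98 (20.9 and 19.8 TPM) was lower in replicate 1. Of the 14, 2 differed 1.2-fold between the animals, Rbm14 and Sfpq, beside the 18.3% of all genes that did so.

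Sqstm1 (chromosome 11, 50199366 to 50210827, minus strand) and Optn (chromosome 2, 5020642 to 5064051, minus strand), both autophagy receptors, lay far apart in level: Sqstm1 was 27.5 ± 3.48 times as high as Optn. Of 12 other receptor genes, the highest were the mitophagy receptor Bnip3l (105.2 and 106.7 TPM), Tax1bp1 (69.6 and 64.9 TPM) and Wdfy3 (63.9 and 68.4 TPM), and Calcoco2 was listed at 0 in both animals. Sqstm1 thus lay above all 12 in both animals, at 3.80 ± 0.251 times Nbr1, its relative in domain layout, and 3.52 ± 0.243 times Tax1bp1. Optn lay below 11 of the 12. Of the 11 receptors with enough counts, 0 differed 1.2-fold between the animals, beside 18.3% of all genes tested.

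Sqstm1-202, which encodes 442 residues, held 6945 of the gene's 7430 counts in replicate 1 and 7602 of 8356 in replicate 2. Sqstm1-206, a form of 457 bases with a retained intron, had 11.9 and 2.98 TPM. The second quantification gave it 19.5% and 7.42% of the gene, against 5.09% and 1.24% in the first, and lowered Sqstm1-202 to 75.4% and 81.1%, so the level of Sqstm1-206 was uncertain. Optn-202, which encodes 584 residues, had 6.56 and 7.69 TPM and 290 and 370 counts. By the second quantification Optn-202 held 76.6% and 49.0% of the gene, and the short processed transcript Optn-204 held 12.6% and 36.0%, on 9.74 and 45.3 counts. Optn-205, another processed transcript, had 0 and 0.31 TPM, and passed 10% by the second quantification in replicate 2. The share of the full form of Optn was thus less well fixed than its count total, which was 325 and 420 in the first quantification and 352 and 465 in the second.

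The receptors hand their cargo to the ATG8 proteins, which coat the autophagosome membrane. All 5 ATG8 genes listed were at 79.7 TPM or above in both animals, led by Gabarapl1 at 383 and 390 TPM, then Map1lc3a at 128 and 139 TPM and Gabarapl2 at 111 and 108 TPM, with Map1lc3b lowest at 79.7 and 84.9 TPM. Among the partners and targets of p62 in nutrient and oxidative stress signalling, the atypical kinase Prkcz was highest at 110 and 105 TPM, then the glutathione synthesis gene Gclm at 39.7 and 48.3 TPM and the growth kinase gene Mtor at 41.3 and 44.2 TPM. Keap1, whose product p62 sequesters, had 24.6 and 26.6 TPM, and the stress enzyme gene Hmox1 was lowest at 2.55 and 1.67 TPM. Of these 9, 2 differed 1.2-fold between the animals, a share near the 18.3% of all genes tested.

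Tbk1 (chromosome 10, 121546455 to 121586787, minus strand) stood at 21.02 and 20.40 TPM, and its kinase relative Ikbke at 0.53 and 0.58 TPM, a ratio of 37.4 ± 3.17. Tbk1-201, which encodes the 729-residue kinase, had 15.6 and 14.6 TPM and 801 and 816 counts. Tbk1-207, a form of 747 bases with a retained intron, had 2.18 TPM and 24.8 counts in replicate 1 and 5.02 TPM and 62.2 counts in replicate 2. Without it Tbk1 stood at 18.8 and 15.4 TPM, a log2 ratio of 0.29, so Tbk1-207 brought the TPM of the animals closer, where the short form of C9orf72 and of Matr3 set them further apart. Among its adaptors and targets, Rab7, a GTPase gene of late endosomes, was highest at 170 and 181 TPM. The adaptor genes Azi2 (35.6 and 36.5 TPM) and Tbkbp1 (26.2 and 25.2 TPM) followed, and Ikbke was lowest. In this list, 3 of the 9 genes with enough counts differed 1.2-fold, beside 18.3% of all genes tested, and all 3 were higher in replicate 1. They were Ticam1 (log2 ratio 0.49), Irf3 (0.47), the gene of an interferon factor and TBK1 substrate, and Rab8b (0.27). Of the 9 autophagy initiation genes, Becn1 (74.1 and 84.8 TPM), Rb1cc1 (67.3 and 60.7 TPM) and Atg13 (39.3 and 41.8 TPM) were highest and Atg14 was lowest (9.28 and 8.88 TPM). Among these 9, 1 differed 1.2-fold, Atg101 (log2 ratio 0.32), beside 18.3% of all genes tested.

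C9orf72 (chromosome 4, 35191285 to 35226175, minus strand) was close in level to both partners of its complex. It stood at 8.99 and 11.6 TPM, Smcr8 at 16.0 and 15.4 TPM and Wdr41 at 9.16 and 9.74 TPM. The ratio over C9orf72 was 1.55 ± 0.316 for Smcr8 and 0.929 ± 0.128 for Wdr41. Both animals had Smcr8 above C9orf72, while the ranges of Wdr41 and C9orf72 overlapped. By the second quantification, Smcr8 lay above C9orf72 in replicate 1 (12.5 against 9.00 TPM) but just below it in replicate 2 (17.2 against 17.8 TPM). In humans the disease allele is a repeat expansion in the first intron, and these mice carry no such label. C9orf72-203, which encodes 481 residues over 11 exons, had 7.89 and 8.08 TPM and 429 and 478 counts. C9orf72-204 (35218409 to 35226123) starts upstream of C9orf72-203, has 2 exons and no annotated reading frame, and shares 503 of its 703 bases with C9orf72-203. It held 18.3% and 39.1% of the gene by the second quantification, on 17.5 and 51.2 counts, so both quantifications put it higher in replicate 2 and both on few counts. Gm12367, on the opposite strand at the same end of the gene, held 10 and 6 counts, and reads of the strands were assigned in a way not given in the sources used here.

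Grn (chromosome 11, 102430315 to 102437048, plus strand) stood at 24.6 and 23.7 TPM, below Psap and Sort1, the genes of a binding partner and a receptor. Psap, which encodes prosaposin, a lysosomal precursor that binds progranulin, stood at 718 and 737 TPM, 30.1 ± 1.37 times Grn, and was the highest gene of any partner list. Sort1, which encodes sortilin, the receptor that takes progranulin to the lysosome, stood at 132.4 and 132.9 TPM, 5.49 ± 0.163 times Grn. The cathepsin gene Ctsb had 240.1 and 245 TPM and Lrp1, another uptake receptor gene, 153 and 155 TPM. The neutrophil elastase gene Elane, whose product can cut progranulin into granulins, was listed at 0 in both animals. Of 18 genes listed, 14 had at least 1 TPM in both animals, and 0 of the 14 with enough counts differed 1.2-fold, beside 18.3% of all genes tested. Microglia are a known source of progranulin, and the 8 microglia markers lay between 10.1 and 49.6 TPM over both animals, the range in which Grn fell. Some markers of other cell types lay in that range too, such as Aqp4 of astrocytes (40.5 and 38.2 TPM) and Mog of oligodendrocytes (21.8 and 24.1 TPM). Which cells the Grn RNA came from was not tested. Grn-201, which encodes 602 residues over 13 exons, had 20.5 and 19.5 TPM and 808 and 835 counts. Grn-202, with a retained intron, had 0 and 1.84 TPM, and the incomplete form Grn-203 had 1.09 and 0.03 TPM. Both passed 10% of the gene in replicate 2 by the second quantification. Fam171a2 on the opposite strand overlaps the last 68 bases of Grn and held 2374 and 2435 counts.

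Vcp (chromosome 4, 42979963 to 43000507, minus strand) shares reads with a near-identical copy. The processed pseudogene Vcp-rs (chromosome X, 104345829 to 104348234, minus strand) aligns with Vcp-201 over 2421 bases, the whole coding sequence with its stop codon, at 8 mismatches and 15 gap bases. The longest run without a difference has 794 bases, and 51.5% of the 3217 stretches of 100 bases in Vcp-201 occur in Vcp-rs letter for letter. Among stretches of 60 aligned bases without a gap, the first with the most differences is shown here. Its 3 differences are in capitals.
Vcp, 42983520 to 42984306 across a splice junction: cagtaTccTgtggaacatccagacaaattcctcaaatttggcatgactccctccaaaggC
Vcp-rs, 104346696 to 104346755: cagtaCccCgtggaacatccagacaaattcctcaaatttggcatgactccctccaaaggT
Vcp was assigned 4309 counts in replicate 1 and 4849 in replicate 2, and Vcp-rs 1961 and 2347, which is 31.3% and 32.6% of the sum. The second quantification put the share of Vcp-rs at 26.2% and 27.5%. Added together they stood at 127 and 136 TPM, 132 ± 6.51, a sum above Tardbp in the order of levels. Vcp-rs has 2406 bases and Vcp-201 has 3316, so the same reads would give fewer TPM if all were assigned to Vcp. How many of those reads came from either locus was not tested. For the other 8 genes, matches of at least 95% over 200 bases or more outside the overlapping genes were to Gm8566, a pseudogene that matches Sod1-201 at 97.8% over 465 bases and held 9.81 and 1.10 counts, and to 207 bases of Emb and 217 bases of Gm26764, both in Matr3.

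Vcp works with adaptor proteins that choose its substrates, and 16 of 16 listed cofactor genes had at least 1 TPM. Vcp lay above all 16 in both animals, at 1.22 ± 0.0173 times the highest, Nsfl1c (64.9 and 67.1 TPM), which encodes the cofactor p47. Ubxn1, which encodes a further cofactor, had 48.3 and 52.1 TPM. Ankzf1, which acts in ribosome quality control, was lowest at 9.90 and 9.31 TPM. The pair that recruits Vcp to ubiquitin-tagged proteins was Ufd1, at 43.1 and 54.3 TPM, and Nploc4, at 29.6 and 32.1 TPM. Of the 16, 0 differed 1.2-fold between the animals, beside 18.3% of all genes tested. The single coding form Vcp-201, which encodes 806 residues, had 75.6 and 77.9 TPM.

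Sod1 (chromosome 16, 90220754 to 90226329, plus strand) was the simplest of the genes. Sod1-201, which encodes 154 residues over 5 exons in 641 bases, took 99.0% of TPM in each animal. The other annotated form, Sod1-202, keeps introns, has 3970 bases and took 0.997% ± 0.0613 of TPM and 6.72% ± 0.398 of counts. Sod1 stood at 1.66 ± 0.0408 times Sod2, the mitochondrial enzyme (112.9 and 118.9 TPM), and 75.2 ± 10.4 times Sod3, the extracellular enzyme (2.81 and 2.35 TPM). Ccs, which encodes the copper chaperone that loads SOD1, stood at 14.5 and 14.4 TPM, so Sod1 was 13.3 ± 0.215 times as high as its chaperone. Of the 8 genes in this list, Mif, whose product keeps misfolded SOD1 soluble, was highest at 235 and 253 TPM, and Prdx1, a peroxiredoxin gene, had 101 and 101 TPM. Sod3 was lowest, and was the 1 gene of the 8 that differed 1.2-fold, a share near the 18.3% of all genes tested. Scaf4 on the opposite strand overlaps the last 650 bases of Sod1 and held 997 and 1056 counts.

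Beside the 9, 33 of 34 further genes linked to ALS or FTD were matched by symbol, and 33 had at least 1 TPM in both animals. Their median was 60.3 TPM in replicate 1 and 61.8 TPM in replicate 2, between Vcp and Grn. The highest were Kif5a, a neuronal motor gene (582 and 601 TPM), Tuba4a, a tubulin gene (273 and 276 TPM), and Stmn2, a neuronal stathmin gene (184 and 206 TPM) whose human RNA is misspliced when TDP-43 is lost. The lowest was Ang, the ribonuclease angiogenin, at 1.82 and 2.10 TPM. Kif5a was thus above all 9 members, and Matr3 and Tuba4a overlapped between the animals. Of the 32 with enough counts, 0 differed 2-fold, beside 0.861% of all genes tested, and 1 differed 1.2-fold, beside 18.3%. That gene was the cyclin gene Ccnf (4.05 and 2.34 TPM, log2 ratio 0.43), which was singled out after its value was seen.

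**Figure D5:**
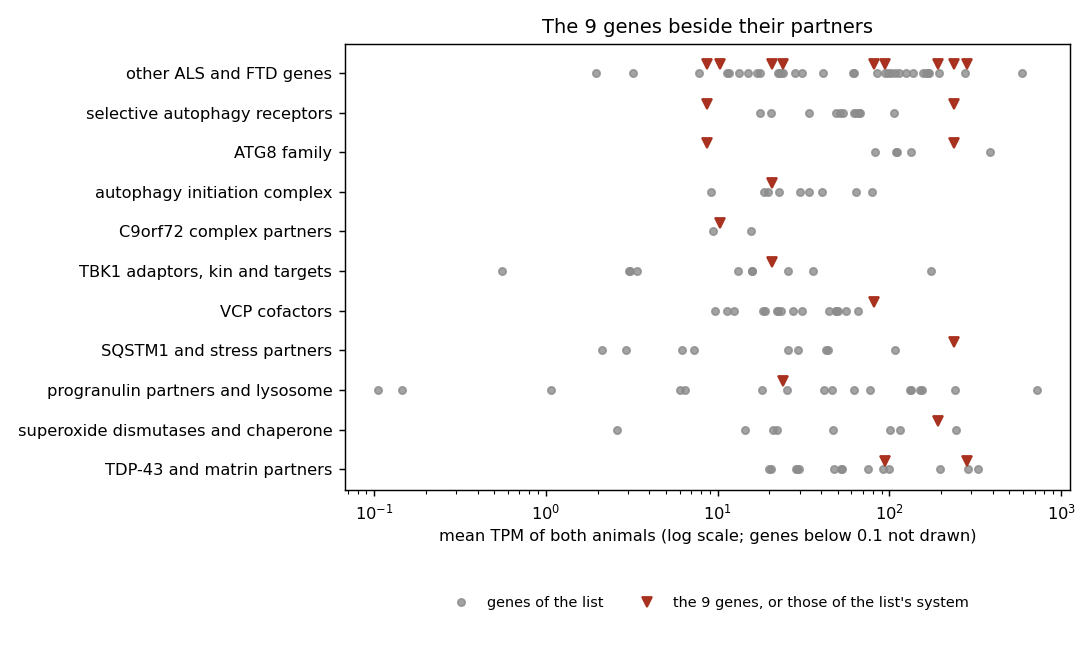
Mean TPM of both animals on a log scale for the genes of 11 lists (points, a row for each list), with the 9 genes, or those the list belongs to, as triangles above the row. Sqstm1 and Optn lie on either side of nearly all other receptors, Vcp lies above its 16 cofactors, and Grn lies below Psap and Sort1; 2 genes below 0.1 TPM are not drawn.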

How the data were processed

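Total RNA of left cerebral cortex from 2 mice of 1 group was compared by animal. The authors deposited, per the file headers, expected counts, TPM and FPKM per gene and per transcript, with each transcript's percent of its gene (IsoPct) and the bounds of a credibility interval on the TPM scale (signal). A second deposited transcript table per library gives estimated counts and TPM. Both use mm10 and GENCODE M21. Not given in the sources used here are programs, versions, settings and whether strand was used. Overlapping genes and near-identical copies are therefore uncertain. Protein-coding genes held 49.3% and 50.6% of TPM in the first tables and 46.4% and 66.2% in the second, so TPM of the second was compared between the animals as shares of a gene, or after rescaling over protein-coding genes.

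Expected counts were rounded. Library sizes (24688669 and 27440152) exclude 356 genes of ribosomal RNA, tRNA entries and spike-ins. Log2 ratios (replicate 1 over replicate 2) used CPM scaled by TMM in edgeR 4.0.16 under R 4.3.3, a prior count of 2 and genes averaging 50 or more normalised counts. The coefficient of variation came from edgeR's common dispersion over genes averaging 10 or more. No p-value was computed, since there is 1 group. Binomial intervals of 95% are exact. Copies were sought with blastn 2.17.0 among GENCODE M21 transcripts, at 95% identity or more over at least 200 bases, and sequences were read from the same transcripts. Sequence of Matr3 is not shown. The calculations were tested on simulated data. Python 3.11.15, pandas 2.3.3, numpy 2.4.6, scipy 1.17.1 and matplotlib 3.10.9 were used.

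The members and gene lists were chosen with earlier results of these data known. Named were the 9 genes, their forms that led or held at least 10% of a gene in either animal by either quantification, Smcr8, Wdr41, Ccs, Sort1 and Psap, and the 3 highest genes and the lowest of each list. Others were named after their values were seen. A few items within the rule are left unreported here. Alternatives covered scaling (DESeq2 1.42.0, library size, spike-ins), filters, prior counts, FPKM, posterior mean TPM, TPM on a log2 scale with 1 or 0.1 added, single animals and the second quantification.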

Additional observations from a re-analysis of the deposited data

How the results depend on the processing

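No paired analysis was possible because the series has 1 group. The order of the 9 genes was the same by posterior mean TPM and by the second quantification. It was also the same in FPKM and after rescaling either quantification over protein-coding genes. Those settings multiply all genes of a library by the same factor, so they could not change the order within an animal. The number of neighbouring pairs kept apart was 3 of 8 in the second quantification, whose TPM differs in total between the animals, and 7 of 8 after rescaling it, a setting chosen after seeing the data. Counting Vcp with Vcp-rs, also chosen after seeing the data, placed Vcp above Tardbp and set the median level at 93.7 TPM. That median was 52.1 in FPKM, 89.2 TPM in the second quantification, 162 TPM over protein-coding genes and 158 TPM in the rescaled second quantification, and 78.7 to 83.0 TPM with either animal left out. Genes with at least 90% of TPM in protein-coding forms numbered 6 at a threshold of 80%, 1 at 95% and 7 by counts, and 3 to 4 with either animal left out. The second quantification also gave 3, but with Matr3 in place of Sqstm1. The share of all protein-coding genes under these other settings was not computed. No member differed 2-fold under the 10 alternatives tried, and leaving out an animal leaves no ratio. By log2 TPM with 1 or 0.1 added, 2 members differed 1.2-fold, against 0 by counts. Of 14163 genes, 2799 and 3511 did so at these 2 settings. Under each alternative run, the leading form agreed between the animals, and between the quantifications, in all 9 genes, but in Tardbp it was another form by counts than by TPM. The limits are 2 animals, 1 library each, counts under 550 for C9orf72 and Optn, and the split of reads between overlapping forms and between Vcp and Vcp-rs.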
